A study of Mus musculus with 18 samples.

Results

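Hub vertices are the regions of the MEL genome that contacted many other regions in a polymerase II contact map. A vertex is a stretch of at least 1 kb of open or protein-bound chromatin, and an edge is a contact between 2 vertices that the authors listed. Hubs were chosen by their number of edges: a vertex was a hub when it had 5 or more distinct partners in the edge list of day 5 or of day 0. This rule found 441 hubs among 130283 vertices (0.338%), or 6.05% of the 7292 vertices that had an edge on 1 or both days. Of the hubs, 116 had 5 or more edges on day 5 only, 130 on both days and 195 on day 0 only. The comparison set was the 4400 vertices that had 1 edge on at least 1 day and never more than 1. The edge lists chose the hubs, so the number of edges is described below with no test, while DNase, footprint and PU.1 values did not enter the rule.

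MEL is a mouse erythroleukemia cell line, and dimethyl sulfoxide (DMSO) drives it to produce hemoglobin. Cells were taken after 5 days in 2% DMSO (day 5) and without DMSO (day 0), both from the same line, with 2 biological replicates per day and assay, per the labels. The assays were ChIA-PET with the polymerase II antibody 4H8, DNase-seq, PU.1 ChIP-seq and RNA-seq. Edges came as 1 list per day made by the authors from both ChIA-PET replicates, so the number of edges has no replicate error here. Most day 5 cells stained for hemoglobin, per the labels.

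ChIA-PET joins DNA ends held together in an immunoprecipitate, so with an antibody to polymerase II it lists promoters and enhancers that lie close in space. In such maps a few regions collect many contacts, often where active genes crowd together, and these are called hubs. DNase I cuts open chromatin, a footprint is a short protected stretch inside an open site where a protein sat on the DNA, and PU.1 is a transcription factor of myeloid and B cells whose level is known to drop as erythroid cells mature. A hub is given below by its position on build mm9, and the genes at the hubs were not analysed here.

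The day 5 list held 4618 edges among 5222 vertices, and the day 0 list held 4776 edges among 5084 vertices. The 4 RNA libraries matched the labelled line: 5 of 7 erythroid markers were called higher on day 5, among them Epor, the erythropoietin receptor gene. Epor had 184 and 191 FPKM on day 5 against 75.4 and 58.1 FPKM on day 0 (limma adjusted p = 0.0140). The markers Gata1 and Klf1 were also higher in both day 5 libraries but did not pass (limma adjusted p = 0.0760 and 0.0538). The Epor call was lost with no filter on low FPKM (limma adjusted p = 0.0723) and with any 1 library left out (limma adjusted p = 0.0789 to 0.168), and those of the markers Hba-a1 and Alas2 were also lost with any 1 library left out. In the same fit 10.7% of 10736 genes were higher and 7.81% lower on day 5. The myeloid markers Csf1r, Lyz2, Mpo and Elane, the lymphoid marker Cd3e and the epithelial marker Krt8 were listed at 0 in every library. Among markers that were not, Fcgr1, a myeloid Fc receptor gene, had 0.386 and 0 FPKM on day 5 against 5.34 and 1.77 on day 0 (limma adjusted p = 0.0624). Csf3r reached 0.553 FPKM in day 0 replicate 2, and the epithelial marker Epcam was at 0 on day 5 against 0.665 and 0.295 FPKM on day 0. The DNase lists held 617606 and 518066 sites on day 5, against 190924 and 252611 on day 0. The PU.1 replicate lists held 10714 and 18614 peaks on day 5, against 34590 and 46077 on day 0. Read depths are unknown for all of these lists.

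Most hubs had fewer contacts on day 5. In these bulk samples, a contact made in fewer cells and one made more weakly cannot be told apart, and the same holds for DNase and PU.1. The hubs had a mean of 4.84 edges on day 5 and 5.81 on day 0, with a median of 5 on both days. A group of 153 hubs had more edges on day 5, 18 had equal numbers and 270 had fewer. By the rule, the 116 hubs of day 5 only are among those with more. The 195 of day 0 only are likewise among those with fewer. The largest difference upward was 12 edges and the largest downward was -15. Hubs of 10 or more edges numbered 26 on day 5 and 43 on day 0, and 11 were such hubs on both days. No edge was listed on day 5 for 13 hubs, and none on day 0 for another 13. Over the 441 hubs, the numbers of edges on both days had a Spearman rho of -0.0486, a description that the choice by either day shapes.

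**Figure D1:**
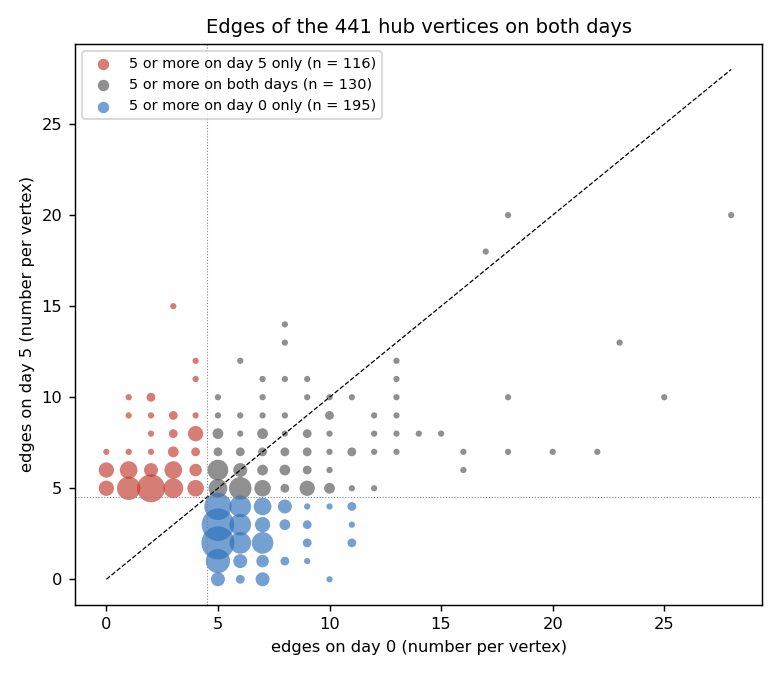
Edges per hub vertex on day 5 (y axis) against day 0 (x axis), with the area of a point set by the number of hubs there, the dashed line at equal numbers and dotted lines at the threshold of 5. The 195 hubs of day 0 only lie below the threshold line for day 5 by the rule, and 270 of the 441 hubs, these included, lie under the dashed line.

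The hub with the most edges was chr3:96359898-96369002, 9105 bases wide, with 20 edges on day 5 and 28 on day 0. It shared 16 partners between the days out of 32 in all, and 9 of its day 5 partners and 13 of its day 0 partners were hubs too. Its DNase score, the authors' value for the strongest open site in the vertex, was 503 and 547 on day 5 against 867 and 673 on day 0. The next on day 5 was chr19:29322812-29329588, with 20 edges on day 5 and 18 on day 0, of which 14 partners were shared. After it came chr3:95461982-95465410, with 18 edges on day 5 and 17 on day 0 but only 8 shared partners of 27. At this hub the number of edges was nearly equal on both days while most partners differed.

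On day 0 the hubs after the first were chr19:46102058-46120962, with 10 edges on day 5 and 25 on day 0, and chr3:95732020-95736530, with 13 on day 5 and 23 on day 0. The chromosome 19 hub is spread over 18905 bases, the widest of all 130283 vertices. Hub chr3:96022507-96027436 had 7 edges on day 5 and 22 on day 0, and chr15:97672987-97681900 had 7 on day 5 and 20 on day 0. That chromosome 15 hub held 22 footprints on day 5 against 43 on day 0. All of these day 0 hubs kept 5 or more edges on day 5, and 6 to 12 of their partners were shared between the days.

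The largest difference upward was at chr10:79576750-79579157, with 15 edges on day 5 and 3 on day 0. All 3 of its day 0 partners were also partners on day 5. Its neighbour chr10:79515748-79517588 had 10 edges on day 5 and 2 on day 0, both shared. Hub chr12:32743917-32746920 had 10 edges on day 5 and 1 on day 0, and chr11:31769940-31774751 had 10 on day 5 and 2 on day 0. At chr11:16902326-16906358, with 12 edges on day 5 and 4 on day 0, footprints were 18 on day 5 and 8 on day 0. Of these 5 hubs, 3 kept all of their day 0 partners, the chromosome 11 hub at 16.90 Mb kept 3 of 4 and the one at 31.77 Mb kept 1 of 2. Both day 5 DNase scores were below both day 0 scores at these 5 hubs, as at most vertices.

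Hubs were wider than other vertices, with a median of 3838 bases (quartiles 2958 and 5132) against 2232 for 1-edge vertices and 1000 for all vertices. The authors built vertices by merging DNase sites with peaks of polymerase II and cohesin, so a wide vertex is one that merged more signal. Width and the highest number of edges had a Spearman rho of 0.248 over the 441 hubs and 0.362 over the 7292 vertices with an edge. Per kb, hubs had a median of 1.17 edges on day 5 and 1.35 on day 0. The densest on day 5 was chr8:125209122-125210722, only 1601 bases wide, with 10 edges on day 5 and 5 on day 0, or 6.25 and 3.12 edges per kb. On day 0 it was chr12:114066155-114069159, with 2.00 edges per kb on day 5 and 5.32 on day 0. The widest hub, on chromosome 19, had only 0.529 edges per kb on day 5 and 1.32 on day 0. Because of these widths, 1-edge vertices were weighted to the width deciles of the hubs in the comparisons below, which brought their median width to 3835 bases.

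Values on either side of the threshold were close. The 160 vertices with a highest number of 5 edges had a median of 12.5 footprints on day 5 and 12 on day 0, and the 329 vertices with 4 had 11 and 10. A merged PU.1 peak lay in 13.8% of the vertices with 5 edges on day 5 and 30.6% on day 0, and in 14% and 33.7% of vertices with 4 edges. The 58 vertices with 10 or more edges had 23 footprints on day 5 and 24 on day 0, and 29.3% held a merged PU.1 peak on day 5 and 53.4% on day 0. The median DNase scores of vertices with 4 edges were 122 and 156 on day 5, and 298 and 232 on day 0. Those with 5 edges had 128 and 156 on day 5, and 321 and 244 on day 0. With 10 or more edges the scores were 178 and 217 on day 5, and 411 and 339 on day 0. These measures thus continued across the threshold without a jump in these medians and shares.

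A large part of all contacts ran through the hubs. An end at a hub was found in 1747 edges of day 5 (37.8%) and 2046 edges of day 0 (42.8%). Both ends were hubs in 386 edges on day 5 and 518 on day 0. Of hubs with an edge that day, 291 of 428 had another hub as a partner on day 5 and 303 of 428 on day 0. Among 1-edge vertices the partner was a hub in 16.7% on day 5 and 19.2% on day 0. A vertex of many edges is a partner more often by construction, so these shares are descriptions.

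Edges between hubs spanned a median of 70.7 kb on day 5 and 106 kb on day 0. Edges with no hub end spanned 36.1 kb on day 5 and 39.5 kb on day 0. No edge within a chromosome was longer than 1994 kb on day 5 or 1982 kb on day 0. Of edges with a hub end, 51.6% of those of day 5 were also listed on day 0, and 44.0% of those of day 0 were also listed on day 5. Of edges with no hub end the shares were 31.6% and 33.2%. Hub-to-hub edges were listed on the other day most often, at 70.2% of those of day 5 and 52.3% of those of day 0. Over single hubs, 403 had at least 1 partner in common between the days, and the median share of partners in common was 33.3%. The median share was 20% for hubs of day 5 only, 41.7% for hubs of both days and 28.6% for hubs of day 0 only. Hubs of 1 day only have unequal numbers of edges by the rule, which caps this share. The order of the classes is therefore a description.

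Hubs lay close together along the chromosomes. The median distance to the nearest other hub was 61.6 kb, and 261 of 441 hubs (59.2%) had another within 100 kb. Such distances were not worked out for other vertices with an edge, so closeness is not shown to be particular to hubs. Chromosome 11 held 67 hubs, chromosome 19 held 51 and chromosome 3 held 38, and on chromosome 19 they were 12.4% of the vertices with an edge. In windows of 1 Mb, the fullest were chromosome 3 from 95 Mb and chromosome 9 from 20 Mb with 14 hubs each, chromosome 13 from 23 Mb with 13, chromosome 19 from 29 Mb with 12, chromosome 10 from 79 Mb with 11 and chromosome 1 from 75 Mb with 10.

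The windows did not move together. On chromosome 13 between 23.52 and 23.86 Mb, all 13 hubs had fewer edges on day 5, summing to 50 on day 5 and 115 on day 0. On chromosome 1 between 75.12 and 75.25 Mb, all 10 hubs had more edges on day 5, summing to 77 on day 5 and 42 on day 0. There 8 of 10 hubs also held more footprints on day 5, 102 in all against 75 on day 0. On chromosome 11 from 87 Mb the 9 hubs had 41 edges on day 5 and 67 on day 0, and 8 of 9 held fewer footprints on day 5, 148 in all against 188. On chromosome 10 from 79 Mb the 11 hubs had 84 edges on day 5 and 45 on day 0, with 153 footprints on day 5 and 149 on day 0. On chromosome 3 from 95 Mb, 13 of 14 hubs had fewer edges on day 5, with 91 on day 5 and 140 on day 0. Edges between hubs of 1 window count at both ends, so its hubs are not independent of each other.

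**Figure D2:**
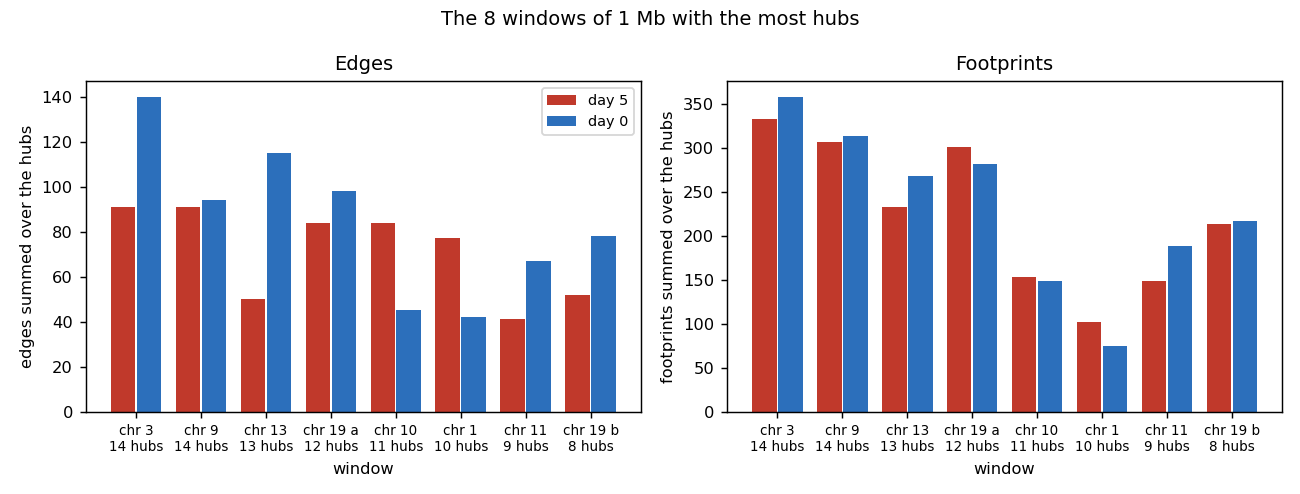
Edges (left panel, number) and footprints (right panel, number) summed over the hubs of the 8 windows of 1 Mb with the most hubs, with day 5 bars left of day 0 bars and chromosome 19 shown as a (from 29 Mb) and b (from 46 Mb). The chromosome 1 window has the higher day 5 bar in both panels, and the chromosome 11 window the higher day 0 bar in both.

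Edges between chromosomes were few, and most had a hub end. A hub end was present in 15 of 21 such edges on day 5 and 18 of 22 on day 0. In all, 32 hubs had an edge to another chromosome, and 8 had at least 2 on 1 day. Of 32 distinct pairs with a hub end, 1 was listed on both days, chr17:29632981-29641302 with chr2:163467099-163472962. That chromosome 2 hub had 12 edges on day 5, 5 of them to other chromosomes, and 6 edges on day 0, 2 of them to other chromosomes. Another hub on chromosome 2, chr2:158141783-158143429, had 7 edges on day 0, all 7 to other chromosomes, and 0 on day 5, and 5 of its 7 partners were hubs themselves. Its DNase scores were low for a hub, 44.7 and 60.3 on day 5 against 84.2 and 119 on day 0, with 2 footprints on day 5 and 1 on day 0.

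Vertices were also joined into connected groups through their edges. The largest group held 124 vertices with 29 hubs on 4 chromosomes on day 5, against 394 vertices with 105 hubs on 11 chromosomes on day 0. In both cases edges between chromosomes join the pieces, so single edges decide these sizes. The group ranked 3 by size held 47 vertices on each day, but it lay on chromosome 9 on day 5 and on chromosome 19 on day 0. Those ranked 4 and 5 held 45 each on day 5 against 40 and 37 on day 0. Groups with at least 1 hub numbered 181 on day 5 and 158 on day 0.

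Hubs had higher DNase scores than 1-edge vertices of like width. Every hub held a DNase site in each of the 4 libraries (441 of 441, 95% Wilson interval from 99.1%), as did nearly all 1-edge vertices (99.8% to 100.0%, weighted). Vertices were built in part from DNase sites, so this share was nearly fixed in advance. Of all 130283 vertices, 130092 held a site in at least 1 library. The median DNase score of hubs was 142 in day 5 replicate 1, where 1-edge vertices had 92.7. In day 5 replicate 2 it was 177 for hubs and 119 for 1-edge vertices. In day 0 replicate 1 it was 343 for hubs and 252 for 1-edge vertices, and in day 0 replicate 2 it was 268 for hubs and 202 for 1-edge vertices. Hubs were thus higher in 4 of 4 libraries, by ratios of 1.53 and 1.5 on day 5 and 1.36 and 1.32 on day 0. An exact two-sided sign-flip permutation test over the 4 libraries gave p = 0.13, the smallest it can give. The middle 50% of hubs ranged from 99.6 to 198 in day 5 replicate 1 and from 246 to 448 in day 0 replicate 1, so the 1-edge median lay below the lower quartile of hubs in the first and just above it in the second.

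**Figure D3:**
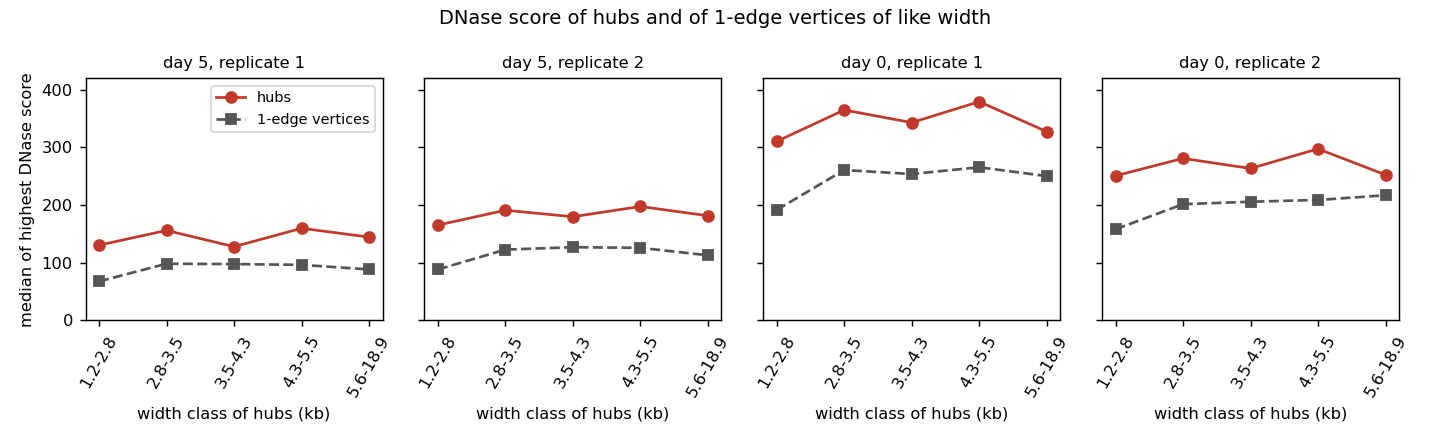
Median of the highest DNase score per vertex (y axis, as deposited) by 5 width classes of equal hub number (x axis, kb) for hubs (circles) and 1-edge vertices (squares), 1 panel per library. The hub line lies above the 1-edge line in every width class and every library, and the day 0 panels lie higher for both kinds of vertex. In the narrowest class the 1-edge vertices were narrower than the hubs.

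The hub median was also higher in each of 5 width classes, which were cut by the widths of the hubs alone. The narrowest class held vertices of up to 2771 bases. There the 89 hubs had a median score of 130 in day 5 replicate 1, against 67.3 for 2999 1-edge vertices. These 1-edge vertices were narrower than the hubs: 2304 of them had at most 2290 bases, against 45 of the hubs. Widths were thus not alike in this class. In the widest class, from 5553 bases, the 88 hubs had 144, against 88.1 for 60 1-edge vertices. The highest scores on day 5 were at chr9:21418808-21422210, with 579 and 653, and the lowest in all 4 libraries were at chr19:30141940-30145035, with 8.09 and 8.68 on day 5 against 4.67 and 10.7 on day 0. Over the 441 hubs the highest number of edges and the DNase score had a Spearman rho of 0.182 to 0.206 in the 4 libraries, a weak relation among vertices that share each library.

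Footprints were denser in hubs. Hubs held a median of 14 footprints on day 5, against 8 in 1-edge vertices of like width, and the same medians of 14 and 8 on day 0. Per kb the medians were 3.77 in hubs and 2.21 in 1-edge vertices on day 5, and 3.56 and 2.11 on day 0. At least 1 footprint lay in 440 of 441 hubs on day 5 (95% Wilson interval 98.7% to 100.0%) and in 437 on day 0 (97.7% to 99.6%). Because footprints are found in open sites, 1-edge vertices were also weighted to the DNase score of hubs, a choice made after the data were seen. The medians per kb for hubs and 1-edge vertices were then 3.77 and 2.61 on day 5, and 3.56 and 2.47 on day 0. There is 1 footprint list per day, so these differences have no replicate check.

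Single hubs ranged widely. The most footprints were in chr13:23515526-23531180, with 68 on both days in 15655 bases, while its edges were 4 on day 5 and 11 on day 0. Hub chr3:95084479-95088455 held 38 on day 5 and 35 on day 0 in 3977 bases, or 9.55 and 8.80 per kb. The 1 hub with none on day 5 was the least open one, chr19:30141940-30145035, which also had none on day 0. Footprints and width had a Spearman rho of 0.503 over the hubs on day 5.

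PU.1 peaks were somewhat more frequent in hubs than in 1-edge vertices of like width, with lower fold enrichment. In day 5 replicate 1 a peak lay in 46.5% of hubs (205 of 441, 95% Wilson interval 41.9% to 51.2%) and in 34.3% of 1-edge vertices of like width. In day 5 replicate 2 the shares were 59.2% of hubs and 48.4% of 1-edge vertices. In day 0 replicate 1 they were 66.7% of hubs and 61.9% of 1-edge vertices, and in day 0 replicate 2 they were 81.9% of hubs and 75.9% of 1-edge vertices. The share was higher in hubs in 4 of 4 lists, by 4.79 to 12.1 percentage points (exact two-sided sign-flip permutation test, p = 0.13, the smallest possible). Where a peak was present, its median fold enrichment, the authors' value, was lower in hubs in 4 of 4 lists (sign-flip test, p = 0.13). It was 5.54 in hubs and 6.41 in 1-edge vertices for day 5 replicate 1, and 7.98 and 8.19 for day 0 replicate 2. Without weighting for width, 1-edge vertices had 5.87 and 6.58 on day 5, where hubs had 5.54 and 6.51. On day 0 they then had 8.27 and 7.26, and hubs were higher, at 8.89 and 7.98.

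In the lists merged by the authors over both replicates, 79 hubs held a peak on day 5 (17.9%, 14.6% to 21.8%), against 14.7% of 1-edge vertices of like width. On day 0 there were 174 (39.5%, 35.0% to 44.1%), against 33.7% of 1-edge vertices. The interval for hubs on day 5 includes the 1-edge share. The difference was larger without the weighting for width (9.55 points on day 5 and 16.9 on day 0) and for hubs of 10 or more edges (12.4 and 14.1 points).

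**Figure D4:**
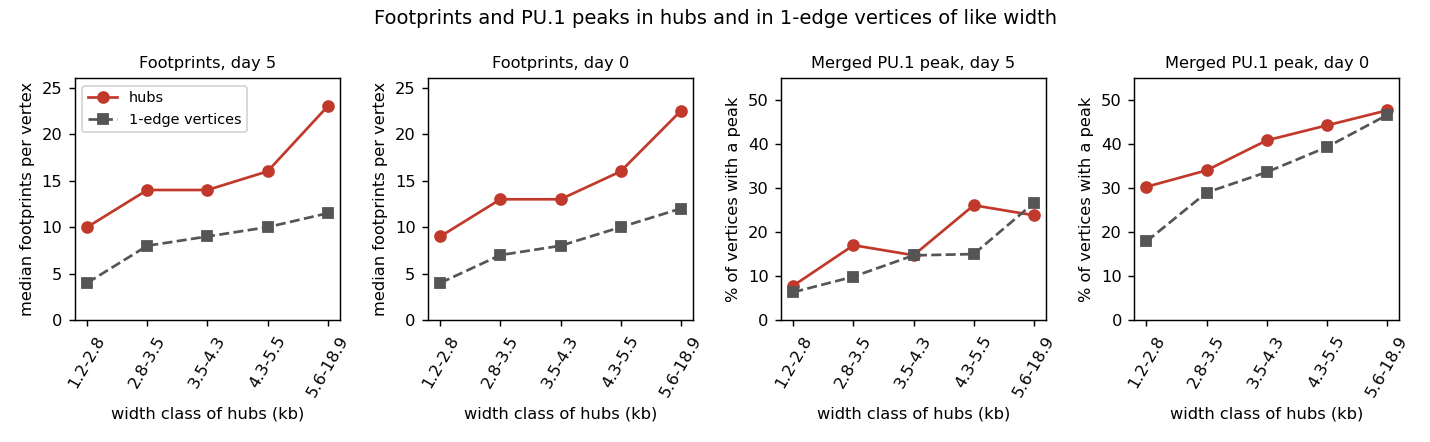
Median footprints per vertex (2 left panels) and percent of vertices with a merged PU.1 peak (2 right panels) by width class of hubs in kb, for hubs (circles) and 1-edge vertices (squares), day 5 left of day 0. Footprints are higher in hubs in every class on both days. PU.1 shares differ most in the narrowest class on day 0 (30.3% of hubs, 17.9% of 1-edge vertices), where the 1-edge vertices were narrower than the hubs. The lines cross in the widest class on day 5 (23.9% of hubs, 26.7% of 1-edge vertices).

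Between the days, PU.1 peaks lay in fewer hubs on day 5, where the lists were also shorter. The mean share of hubs with a peak was 52.8% on day 5 and 74.3% on day 0, with no overlap between the days (exact two-sided permutation test, 2 against 2, p = 0.33, the smallest possible). Among all vertices with a DNase site in all 4 libraries the shares were 8.39% and 13.6% on day 5, against 20.4% and 26.4% on day 0. Peaks of at least 10-fold enrichment lay in 41 and 75 hubs on day 5, against 130 and 140 on day 0. How far the length of the lists sets these shares was not tested.

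Of the 441 hubs, 75 held a merged PU.1 peak on both days, 4 on day 5 only, 99 on day 0 only and 263 on neither day. Of the 174 with a merged peak on day 0, 43.1% also had one on day 5 (95% Wilson interval 36.0% to 50.5%), against 33.9% of such 1-edge vertices (31.0% to 36.9%, not weighted for width). A peak in at least 1 day 5 replicate was found in 164 of these 174 (94.3%). Another 63 hubs had no peak in any replicate, and 160 had one in all 4.

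Among hubs with a merged peak on both days, chr3:95461982-95465410 had the most edges, with 18 on day 5 and 17 on day 0. Its fold enrichment was 8.48 and 15.7 in the day 5 replicates, against 11.1 and 9.39 on day 0, so the days overlapped. At chr3:95084479-95088455 it was 14.5 and 28.2 on day 5, against 25.7 and 23.5 on day 0, again with overlap. At chr19:5792494-5805103, with 8 edges on day 5 and 15 on day 0, it was 10.5 and 17.2 on day 5, below the 27.2 and 22.3 on day 0. The hub with the most edges, chr3:96359898-96369002, had no merged peak on day 5 and 3 on day 0, with fold enrichments of 5.42 and 9.39 on day 5 against 26.1 and 34.2 on day 0. At this hub both day 5 values lay below both day 0 values.

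For DNase, the direction of the difference between the days depended on the scaling of the libraries. As deposited, the median score of hubs averaged 160 on day 5 and 305 on day 0. An exact two-sided permutation test, 2 against 2, gave p = 0.33, the smallest possible. Both day 5 libraries were below both day 0 libraries at 428 hubs (97.1%), close to the 95.1% of 1-edge vertices (not weighted for width). Among all 82262 vertices tested the share was 77.4%. Just 1 hub, chr19:30158102-30165298, was above in both, against 0.369% of 1-edge vertices and 5.36% of all vertices. With library medians set equal, limma called 303 hubs higher on day 5, where 29% of all vertices were called, and 5 lower, where 4.68% were called (adjusted p under 0.05). With scores as deposited it called 0 higher, where 1.22% of vertices were called and 0 hubs had an unadjusted p under 0.05, and 319 lower, where 56.3% were called. With medians set equal 68.7% of hubs were called higher, against 47.6% of 1-edge vertices, and as deposited 72.3% of hubs were called lower, against 78.3% of 1-edge vertices (not weighted for width). After quantile normalization it called 17 higher (0.659% of vertices) and 16 lower (2.22% of vertices). With the median change over vertices set to 0, a scaling added after the data were seen, it called 2 higher (6.66%) and 9 lower (9.16%). With medians set equal, the fitted counts also moved with single libraries left out. In both directions, calls became fewer without either day 5 library and more without either day 0 library, at hubs and over all vertices. Such fits leave 1 library on a day. The day 5 lists held more sites than the day 0 lists, as given above, and the part of this in the scores was not tested.

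Relative to all vertices, the change at hubs was slightly more positive or equal, by scaling. The median log2 change of hubs was 0.79 where that of all vertices was 0.59 with medians set equal, -0.88 where that of all vertices was -1.08 as deposited, and 0.14 in both after quantile normalization. The difference of 0.199 with medians set equal was close to its SD between replicates of 0.183, and it was 0.320 without day 0 replicate 1 and 0.0516 without day 0 replicate 2. By class of hub the median log2 change itself, with medians set equal, was 0.80 for day 5 only, 0.83 for both days and 0.75 for day 0 only. Over the 441 hubs the difference in edges and the log2 DNase change had a Spearman rho of 0.0605.

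A set of 5 hubs fell in DNase score on day 5 by limma with library medians set equal, as deposited and after quantile normalization alike. At chr12:114448296-114451926 the scores were 39.4 and 34.5 on day 5 against 693 and 508 on day 0 (log2 change -2.34 ± 0.26 SE with medians set equal, limma adjusted p = 0.00896). The change was -4.01 as deposited and -2.84 after quantile normalization, and the call held in all 10 alternatives run. Both day 5 libraries were more than 10-fold below both day 0 libraries. This hub had 1 edge on day 5 and 6 on day 0, with no partner in common, while its footprints were 13 on day 5 and 11 on day 0.

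At chr19:29443102-29448694 the scores were 43.2 and 45.8 on day 5 against 597 and 430 on day 0 (-1.84 ± 0.22 SE, limma adjusted p = 0.0127), with 7 edges on day 5, 8 on day 0 and 5 partners in common. At chr9:21043130-21045429 they were 58.3 and 83.0 on day 5 against 422 and 393 on day 0 (log2 change -0.88 with medians set equal). This hub had 5 edges on day 5 and 9 on day 0, and 11 footprints on day 5 and 9 on day 0. At chr11:87537997-87541538 the scores were 58.9 and 71.6 on day 5 against 387 and 294 on day 0 (-0.70), and PU.1 fold enrichment was 6.27 and 11.6 on day 5 against 15.8 and 20.1 on day 0. At chr12:60139742-60142968 they were 92.4 and 99.0 on day 5 against 478 and 429 on day 0 (-0.57). This last hub had 0 edges on day 5 and 7 on day 0, 7 footprints on day 5 and 19 on day 0, no PU.1 peak in any replicate and no other hub within 18 Mb. Without either day 5 library, 4 of the 5 lost the call and only the first, on chromosome 12 at 114.45 Mb, kept it.

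The 5 largest DNase increases with library medians set equal did not hold under every scaling. Hub chr4:62175863-62183083 had scores of 180 and 258 on day 5 against 262 and 183 on day 0, which overlap (log2 change 1.65 ± 0.22 SE with medians set equal, limma adjusted p = 0.0142, against -0.02 as deposited). It also passed after quantile normalization (1.05, adjusted p = 0.0358). Its footprints were 47 on day 5 and 26 on day 0, and its edges 5 on day 5 and 2 on day 0. The hubs chr2:172860430-172864174 and chr15:66655694-66659365 had log2 changes of 1.62 and 1.57 with medians set equal, and -0.05 and -0.10 as deposited. At the first there were 11 footprints on day 5 and 5 on day 0, with 5 edges on day 5 and 1 on day 0. At the second there were 16 footprints on day 5 and 5 on day 0, with 5 edges on day 5 and 2 on day 0. All 3 were hubs of day 5 only, and none had another hub within 3 Mb. The other 2 were the least open hubs on day 0, chr19:30158102-30165298 (2.09) and chr19:30141940-30145035 (1.92), with 3 edges on day 5 and 8 on day 0, and 1 on day 5 and 5 on day 0. All 5 lost the call without either day 5 library, and the second chromosome 19 hub also without day 0 replicate 1.

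**Figure D5:**
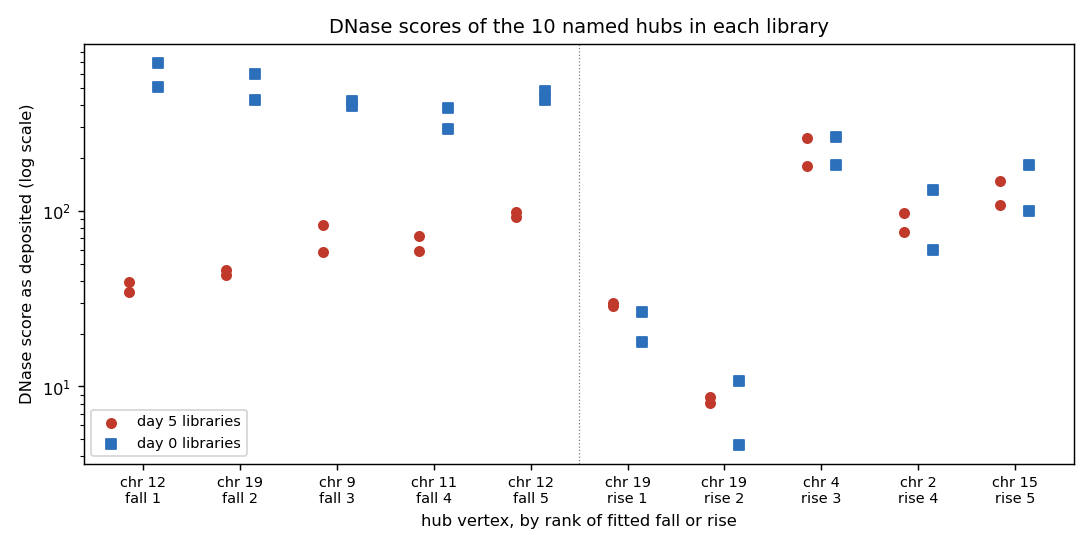
DNase score as deposited (y axis, log scale) of the 5 hubs with the largest fitted fall and the 5 with the largest fitted rise, by chromosome and rank, with day 5 libraries as circles left of day 0 libraries as squares. At the 5 falls the day 5 circles lie between 34.5 and 99.0 and the day 0 squares between 294 and 693, while at 4 of the 5 rises the days overlap before scaling.

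The number of footprints differed between the days by class of hub. Among the 116 hubs of day 5 only, 80 (69.0%) held more footprints on day 5 and 27 fewer, with means of 13.3 on day 5 and 11.4 on day 0. Among the 130 hubs of both days, 72 held more and 46 fewer, with means of 21.7 on day 5 and 21.1 on day 0. Among the 195 hubs of day 0 only, 86 held more and 85 fewer, with means of 14.6 on day 5 and 15 on day 0. For 1-edge vertices, not weighted for width, 43.6% held more on day 5 and 29.3% fewer. Numbers were equal at 1192 of these 4400 vertices, against 9 of the 116 hubs of day 5 only. Median footprints on day 5 and day 0 were 6 and 5 in 1-edge vertices, and 12 and 10 in those hubs. Ties lower the share with more, so 69.0% and 43.6% are not directly comparable. Of all 82262 tested vertices, 15618 held more on day 5, 15576 fewer and 51068 equal numbers. Over the 441 hubs the difference in edges and that in footprints had a Spearman rho of 0.246, with neighbouring hubs sharing edges and all hubs sharing the same 2 lists. The PU.1 shares of the single-day classes lay within each other's intervals, with a merged peak on day 5 in 17.2% of hubs of day 5 only (11.4% to 25.1%) and 15.9% of hubs of day 0 only (11.4% to 21.7%), and on day 0 in 34.5% and 33.8%. Hubs of both days had more, at 21.5% on day 5 and 52.3% on day 0, and were also wider, with a median of 4543 bases against 3545 for day 5 only and 3897 for day 0 only.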

How the data were processed

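The files were made by the authors on build mm9, and Bowtie 1.0.0 and MACS2 2.0.10 are named for PU.1 ChIP-seq, and Bowtie and bedtools for DNase-seq, in the submitters' processing notes. The authors deposited vertex coordinates and edges with a score of undefined scale, used here only as listed or not. DNase sites carry the authors' score of at least 2, and footprints a score of -20 or lower, 1 list per day. PU.1 peaks as deposited have a −log10 p and a ratio, the fold enrichment. Merged lists hold a q-value (irreproducible discovery rate) set by the authors. RNA was deposited as FPKM. Read depth is unknown, so intervals cover counting of vertices only.

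A feature belonged to a vertex if it overlapped by at least 1 base, and a vertex took its highest DNase score. The log2 scores of the 82262 vertices with a site in all 4 libraries, all 441 hubs included, were centred on library medians and fitted by limma 3.58.1 in R 4.3.3 (trend, two-sided, Benjamini-Hochberg over all vertices). In data simulated on these vertices, 8 of 100 changes of 1 on the log2 scale and 63 of 100 changes of 2 were recovered. Beside these, 34 unchanged vertices were called. The changes were set only at vertices with a mean score above the median, and at far fewer vertices than the real fit called. RNA was fitted likewise on log2(FPKM + 1) for genes that reached 1 FPKM in 2 or more libraries. With 1 library left out, the lone library of its day was assumed to vary like those of the other day. One-edge vertices were weighted to 10 width strata of the hubs. Named hubs were the first 5 by edges, edges per kb, difference in edges, DNase rise or fall, and edges among those with PU.1 on both days. Hubs, lists and rules were chosen with earlier results of these data known. Hubs outside this rule that are named for an extreme value were chosen after their values were seen. The 2 input controls were not analysed here.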

Additional observations from a re-analysis of the deposited data

How the results depend on the processing

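With 4 or more edges as the rule there were 770 hubs, and with 6 or more there were 281. Hubs called higher in DNase on day 5 numbered 303 with library medians set equal, 3 with missing scores set to the smallest score, 0 as deposited, 17 after quantile normalization, 2 with the median change set to 0, and 0 to 400 with 1 library left out. Hubs called lower numbered 5, and then 9, 319, 16 and 9, and 1 to 11. The median change of hubs relative to all vertices was 0.199, but -0.00557 with missing scores set to the smallest score, 0.00782 after quantile normalization, and 0.0516 to 0.320 with 1 library left out. As deposited, the change reversed at the hubs on chromosome 4 at 62.18 Mb (-0.0195), chromosome 2 at 172.86 Mb (-0.0502) and chromosome 15 at 66.66 Mb (-0.0998). The excess of merged PU.1 peaks in hubs was 3.17 points on day 5 and 5.73 on day 0, against 9.55 and 16.9 without weighting and 12.4 and 14.1 for hubs of 10 or more edges. The excess of footprints per kb was 1.56 on day 5 and 1.45 on day 0, against 2.43 and 2.42 for hubs of 10 or more edges, 0.768 and 0.758 with a footprint score of -40 or lower, and 1.16 and 1.08 weighted to width and DNase score. Changed genes numbered 1989, 237 with no filter and 0 to 13 with 1 library left out. The scaling itself sets the DNase direction, and the cause of the other shifts was not tested. The exact tests over 4 libraries cannot pass 0.05, so they say nothing of stability.

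Replicate numbers did not pair the samples: the deviations of same-numbered libraries correlated at 0.0562 for DNase and 0.0480 for RNA. With the replicate number as a block, 322 hubs were called higher in DNase, where 25891 of 82262 vertices were called. Another 6 hubs were called lower, where 4998 vertices were called, and 1797 genes changed.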
